A study of Homo sapiens with 10 samples.

Results

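The AP-1 and EGR immediate early transcription factors were followed as a set of 10 listed genes, FOS, FOSB, FOSL1, FOSL2, JUN, JUNB, JUND, EGR1, EGR2 and EGR3, in 786-O cells depleted of ZHX2 or of p65. The genes were listed by name, with earlier results of these data known, and every probe set carrying their current or older symbol was taken. This gave 12 probe sets for 9 of the 10 genes, out of 22462 genes and 53617 probe sets measured in all. No probe set was named EGR2 in the platform annotations used here, and EGR2 was not analysed here.

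The 786-O line comes from a human clear-cell kidney carcinoma and was grown in medium with serum. All cells were infected with lentivirus and selected with puromycin at 2 ug/ml, controls included, and the labels name no acute stimulus. The groups were ZHX2 hairpin 44, ZHX2 hairpin 45 and a scrambled hairpin on 6 arrays in 1 table, and p65 shRNA and control shRNA on 4 arrays in another table, with 2 arrays in each of the 5 groups. ZHX2 is a zinc-finger and homeobox transcription factor, and p65, the product of RELA, is a subunit of NF-kB. The model is 1 cell line, and the labels tell no p65 hairpins apart. Nothing in the labels ties the replicates to separate cultures, so a p-value covers the spread between these samples alone, and that spread may be technical.

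AP-1 is a dimer of leucine zipper proteins, a JUN family protein with a partner from the FOS, JUN or ATF families, that binds short palindromic sites in promoters and enhancers. FOS, FOSB, JUNB and EGR1 are known as immediate early genes, which growth factors, serum and stress switch on within minutes through MAP kinases, with no need for new protein. FOSL1 and FOSL2 lack the strong activation domain of FOS. EGR proteins are zinc-finger factors that bind GC-rich sites and are restrained by the NAB co-repressors.

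Values are log2 signals as the authors deposited them, so a difference of 1 is a doubling. The median signal per array was 6.15 to 6.22 in the ZHX2 table, while the p65 table had medians of 1.87 to 1.89. Levels were not compared between the tables. Between probe sets of a table, mean signals served only to choose the fitted probe set of each gene and to set a cut-off for dim ones. ZHX2 itself fell, at 9.35 and 9.38 on the hairpin 44 arrays and 8.93 and 9.02 on the hairpin 45 arrays, against 10.58 and 10.43 on the scrambled arrays. Markers of cell types were set against the cut-off for dim probe sets. That cut-off was the 40th percentile of mean signal over the fitted probe sets, 1 per gene. In each table, all 5 measured renal epithelial markers had a mean signal at or above it. So did 0 of 4 leukocyte, 0 of 3 endothelial and 2 of 4 fibroblast markers (COL1A1 and LUM). The mean signal over the renal markers was 9.37 to 9.41 with hairpin 44 and 8.99 to 9.04 with hairpin 45, against 9.52 to 9.62 in scrambled cells. Over the fibroblast markers it was 5.46 to 5.50 and 5.36 to 5.50 with hairpins 44 and 45, against 5.78 to 5.79 in scrambled cells. Of the renal markers 3 fell and 1 rose with both hairpins averaged, and of the fibroblast markers 1 fell. The part of these shifts in the results below was not tested.

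After ZHX2 knockdown the measured members moved in both directions. FOSL1 and JUN rose, EGR1, JUNB and JUND fell, and FOS, FOSB, FOSL2 and EGR3 were not called. A gene was called at a limma adjusted p under 0.05, with Benjamini-Hochberg adjustment over all genes. For the mean of both hairpins against scrambled cells, 5 of 9 members were called, 2 higher and 3 lower, where 18.3% of all genes were called, 11.9% higher and 6.40% lower. The median change of the members was -0.02, beside 0.00 over all genes. In bulk RNA, fewer cells with a transcript and less of it per cell cannot be told apart.

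**Figure D1:**
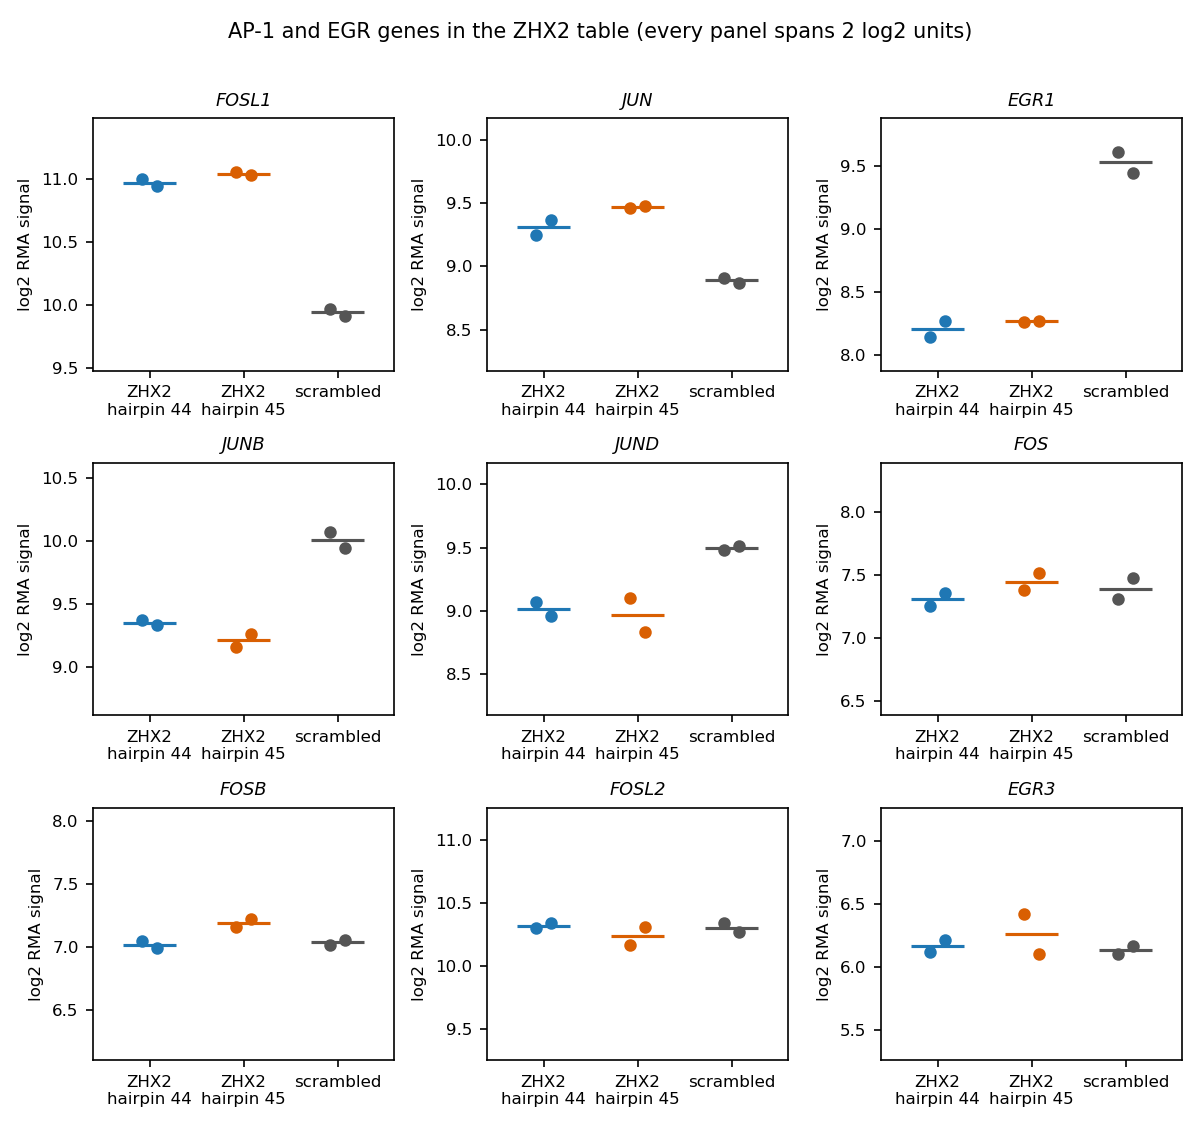
Log2 signal of each member's fitted probe set on the 6 arrays of the ZHX2 table, hairpin 44 and hairpin 45 left of scrambled, with each array as a point and the group mean as a bar. FOSL1 lies between 10.94 and 11.05 on the 4 hairpin arrays, above 9.97 and 9.91 in scrambled cells, and EGR1 lies between 8.14 and 8.27, below 9.61 and 9.44.

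FOSL1, which encodes the FOS-related protein FRA1, gave the largest rise among the members. Its signal was 11.00 and 10.94 on the hairpin 44 arrays and 11.05 and 11.03 on the hairpin 45 arrays, against 9.97 and 9.91 on the scrambled arrays. All 4 hairpin arrays lay above both scrambled arrays, and by more than the arrays of any group differed from each other. With both hairpins averaged the change was 1.06 (SE 0.0635, limma adjusted p = 0.00121), a 2.09-fold higher signal. It was 1.03 with hairpin 44 (limma adjusted p = 0.00529) and 1.10 with hairpin 45 (limma adjusted p = 0.00145), against the same scrambled arrays. The hairpin 44 call was lost without either hairpin 44 array, while the call for the mean of both hairpins was kept under all 13 alternatives, up to a limma adjusted p of 0.0186.

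The other FOS family members were not called. FOS, the founding immediate early member and a partner of JUN proteins, was read by 2 probe sets. Probe set 16786587, the one fitted for the gene, gave 7.26 and 7.36 on the hairpin 44 arrays and 7.38 and 7.52 on the hairpin 45 arrays, against 7.31 and 7.48 on the scrambled arrays, a mean change of -0.02 (95% interval -0.22 to 0.19, limma adjusted p = 0.925). Probe set 16794955 gave 6.21 and 6.37 on the hairpin 44 arrays and 6.27 and 6.24 on the hairpin 45 arrays, against 6.37 and 6.31 on the scrambled arrays, a change of -0.07. The groups overlapped for both probe sets.

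FOSB, which forms AP-1 with JUN proteins and has a truncated splice form, also had 2 probe sets. Probe set 16863287 read 7.05 and 6.99 on the hairpin 44 arrays and 7.16 and 7.22 on the hairpin 45 arrays, against 7.02 and 7.06 on the scrambled arrays, a mean change of 0.06 (95% interval -0.09 to 0.22, limma adjusted p = 0.551). Probe set 16873329 read 6.60 and 6.91 on the hairpin 44 arrays and 6.31 and 6.68 on the hairpin 45 arrays, against 6.66 and 6.71 on the scrambled arrays, a change of -0.06. The hairpin 45 arrays lay above the scrambled arrays on the first of these and not on the second. FOSL2, which encodes FRA2, gave 10.30 and 10.34 on the hairpin 44 arrays and 10.17 and 10.31 on the hairpin 45 arrays, against 10.34 and 10.27 on the scrambled arrays. Its groups overlapped, and the mean change was -0.02 (95% interval -0.20 to 0.16, limma adjusted p = 0.884).

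The 3 JUN family genes did not move together. JUN, the main transactivating partner of FOS proteins, rose, with a signal of 9.25 and 9.37 on the hairpin 44 arrays and 9.46 and 9.48 on the hairpin 45 arrays, against 8.91 and 8.87 on the scrambled arrays. No hairpin array reached down to the scrambled arrays. The mean change was 0.50 (SE 0.0678, limma adjusted p = 0.00755), a 1.41-fold higher signal, and this call was kept under all 13 alternatives. With single hairpins it was 0.42 for hairpin 44 (limma adjusted p = 0.0354) and 0.58 for hairpin 45 (limma adjusted p = 0.00702). The hairpin 44 call was lost with any 1 array left out, and the hairpin 45 call without either hairpin 45 array (limma adjusted p = 0.0513 and 0.0548).

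JUNB, an immediate early gene whose product competes with JUN for partners and is the weaker activator, fell. It read 9.37 and 9.33 on the hairpin 44 arrays and 9.16 and 9.26 on the hairpin 45 arrays, against 10.07 and 9.94 on the scrambled arrays. The groups did not overlap, and the lowest scrambled array stood 0.57 above the highest hairpin array. The mean change was -0.72 (SE 0.0725, limma adjusted p = 0.00352), a signal of 0.606 times that of scrambled cells, and it kept its call under all 13 alternatives. It was -0.65 with hairpin 44 (limma adjusted p = 0.0146) and -0.79 with hairpin 45 (limma adjusted p = 0.00373). Without hairpin 44 replicate 1 or 2, or without scrambled replicate 1 or 2, the hairpin 44 call was lost.

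JUND, the family member known for steady expression in resting cells, fell for the mean of both hairpins, with a call that depended on single arrays. Its signal was 9.07 and 8.96 on the hairpin 44 arrays and 9.10 and 8.83 on the hairpin 45 arrays, against 9.48 and 9.51 on the scrambled arrays. The hairpin arrays spread more than the scrambled arrays but stayed below them. The mean change was -0.51 (SE 0.0957, limma adjusted p = 0.0187), and it no longer passed without scrambled replicate 1 (adjusted p = 0.0698), scrambled replicate 2 (0.0959) or hairpin 44 replicate 2 (0.0612). With hairpin 44 alone the change of -0.48 did not pass (limma adjusted p = 0.0564), though it did with an intensity trend (0.0023), quantile normalization (0.0449) and without dim probe sets (0.0122), and with hairpin 45 it was -0.53 (limma adjusted p = 0.0235, lost without either scrambled array or hairpin 45 replicate 2).

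EGR1, the zinc-finger factor that serves as a standard readout of MAP kinase signalling to chromatin, gave the largest fall among the members. The probe set fitted for the gene, 16989736, read 8.14 and 8.27 on the hairpin 44 arrays and 8.26 and 8.27 on the hairpin 45 arrays, against 9.61 and 9.44 on the scrambled arrays. The 4 hairpin arrays lay within 0.13 of each other, and all of them at least 1.17 below the scrambled arrays. The mean change was -1.29 (SE 0.0810, limma adjusted p = 0.00138), a signal of 0.408 times that of scrambled cells, and its call was kept under all 13 alternatives. It was -1.33 with hairpin 44 (limma adjusted p = 0.00529) and -1.26 with hairpin 45 (limma adjusted p = 0.00179). The hairpin 44 call was lost without either hairpin 44 array.

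A second EGR1 probe set did not show a change of that size. Probe set 17000463, which only the annotation of the ZHX2 platform names EGR1, read 5.93 and 5.85 on the hairpin 44 arrays and 5.99 and 5.62 on the hairpin 45 arrays, against 6.04 and 6.12 on the scrambled arrays. All hairpin arrays lay below the scrambled ones, yet the change was only -0.23 (SE 0.123) and did not pass when every probe set was tested (limma adjusted p = 0.346). Averaging both probe sets gave -0.76 for the gene. All readings of 17000463 lay under the array medians of 6.15 to 6.22, so it may read little or no EGR1 transcript. The annotations used here do not say which parts of the transcript each probe set covers, and the strand was not checked. The difference between the probe sets was not tested.

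EGR3, a related zinc-finger factor and known target of antigen receptor and growth factor signals, was dim. Its 1 probe set lay under the 40th percentile of mean signal in both tables. It read 6.12 and 6.21 on the hairpin 44 arrays and 6.42 and 6.1 on the hairpin 45 arrays, against 6.1 and 6.16 on the scrambled arrays, and the groups overlapped. The mean change was 0.09 (95% interval -0.17 to 0.34, limma adjusted p = 0.633).

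Upstream sequences of called members are shown because signals that switch these genes on reach them in part through short elements close to the start site. The 250 bases upstream of the annotated start were taken from RefSeq on GRCh38.p14 for 7 members (FOS, FOSB, FOSL2, JUN, JUNB, JUND and EGR1). FOSL1 had no entry among the promoters used, and EGR3 was left out of the search. Of the 7 genes, 4 were called. They are EGR1 at chr5:138465229-138465478 on the plus strand, JUN at chr1:58784048-58784297 on the minus strand, JUNB at chr19:12791236-12791485 on the plus strand and JUND at chr19:18281623-18281872 on the minus strand. Each is written 5′ to 3′ along the gene. Capitals mark letters that match a searched motif. In EGR1 these are CArG boxes, to which SRF binds, and an EGR motif. JUN and JUND hold CRE-like motifs, a looser form of the CRE, and JUND also the full CRE, to which JUN and ATF dimers bind. Not every CRE-like match need be such a site.
EGR1: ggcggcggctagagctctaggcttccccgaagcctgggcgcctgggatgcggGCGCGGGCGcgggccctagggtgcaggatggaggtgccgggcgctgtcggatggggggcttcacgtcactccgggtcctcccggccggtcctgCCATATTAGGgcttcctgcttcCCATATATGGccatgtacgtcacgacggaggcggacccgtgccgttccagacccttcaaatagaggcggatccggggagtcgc
JUN: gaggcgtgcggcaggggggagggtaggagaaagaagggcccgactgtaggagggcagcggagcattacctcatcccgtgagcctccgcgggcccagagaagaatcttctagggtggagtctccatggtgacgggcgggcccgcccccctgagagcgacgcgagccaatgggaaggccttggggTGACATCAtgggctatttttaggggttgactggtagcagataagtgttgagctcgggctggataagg
JUNB: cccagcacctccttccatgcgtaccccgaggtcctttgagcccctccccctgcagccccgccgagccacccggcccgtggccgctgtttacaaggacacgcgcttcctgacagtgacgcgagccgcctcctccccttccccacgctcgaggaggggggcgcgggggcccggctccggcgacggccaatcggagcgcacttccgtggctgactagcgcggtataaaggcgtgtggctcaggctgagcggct
JUND: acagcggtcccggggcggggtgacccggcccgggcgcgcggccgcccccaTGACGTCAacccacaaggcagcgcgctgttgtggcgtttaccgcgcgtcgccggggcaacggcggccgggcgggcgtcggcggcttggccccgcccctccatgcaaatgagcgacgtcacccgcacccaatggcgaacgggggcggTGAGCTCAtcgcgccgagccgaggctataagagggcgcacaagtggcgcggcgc

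Of the 7 windows only that of EGR1 held CArG boxes, at bases -105 to -96 and -83 to -74 from the start, while 1.16% of 35116 promoters of this length held at least 1. EGR1 also held the EGR motif GCGNGGGCG, at -198 to -190, which 8.41% of promoters held. JUN held a match to the CRE-like motif TGANNTCA at -67 to -60, and JUND held 2, at -200 to -193 and -54 to -47, where 10.1% of promoters held at least 1. The first of the JUND matches is also the full CRE, TGACGTCA, a special case of that motif found in 1.65% of promoters. The AP-1 motif TGANTCA (6.57% of promoters) and the NF-kB motif (9.96%) had no match in the 7 windows, nor did JUNB hold any of the 6 motifs. Both strands were searched. A match describes the letters in these windows and not a bound site. Sequence farther upstream than 250 bases was not searched, so a window without a match does not show that the gene lacks the element.

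Between the hairpins no member passed the test. For hairpin 45 minus hairpin 44, 0 of 9 members passed limma, where 0.396% of all genes did, 0 of 9 had an unadjusted p under 0.05 (15.1% of all genes) and 0 of 9 passed with an intensity trend (6.52%). The difference was 0.07 for FOSL1 (95% interval -0.11 to 0.25), 0.16 for JUN (-0.03 to 0.35), 0.06 for EGR1 (-0.17 to 0.29), -0.14 for JUNB (-0.35 to 0.06) and -0.05 for JUND (-0.32 to 0.22). All of these intervals include 0, and a difference as large as their bounds cannot be told apart from none at this number of arrays. Taken one by one, hairpin 44 called 4 of 9 members (7.65% of all genes) and hairpin 45 called 5 of 9 (20.1%), where JUND passed with hairpin 45 and, in the fit as described, not with hairpin 44. Both comparisons use the same 2 scrambled arrays.

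**Figure D2:**
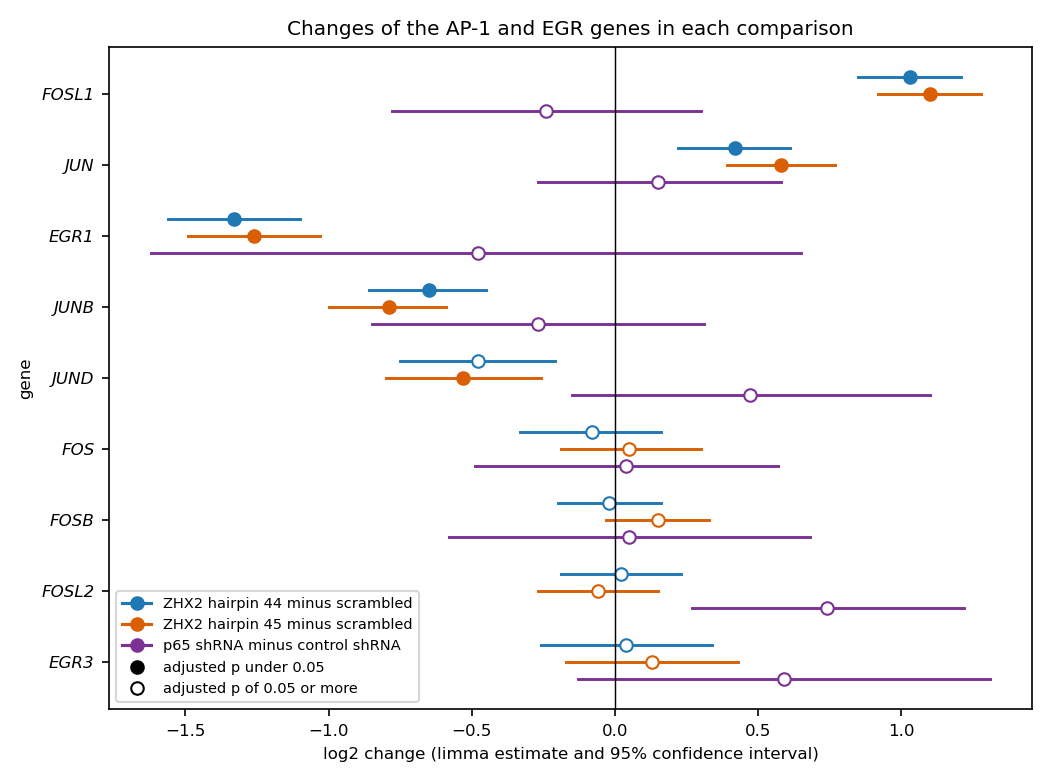
Log2 change of each member with its 95% interval for hairpin 44 and hairpin 45 against scrambled cells, and for p65 shRNA against control shRNA. Each gene is shown by its fitted probe set, which for FOS and FOSB differs between the tables. The intervals of the hairpins lie above 0 for FOSL1 and JUN and below 0 for EGR1, JUNB and JUND, while in the p65 comparison only that of FOSL2 (0.27 to 1.22) leaves out 0.

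In the p65 table the members were measured on p65 shRNA and control arrays that share no sample with the ZHX2 table. RELA read 5.04 and 5.28 with p65 shRNA, against 7.64 and 7.67 with control shRNA. That difference of -2.50 had a limma adjusted p of 0.0730 and passed with an intensity trend (0.00131). Here limma called 0 of 9 members and 0% of all genes. At an unadjusted p under 0.05 there were 14.3% of genes (3218), and 1 member by its fitted probe set, FOSL2. The FOS probe set that was not fitted in this table is described below. With an intensity trend 3.86% of genes (868) passed, again with FOSL2 as the 1 member. Replicate arrays differed more here, with an SD of the difference of 0.40 in p65 shRNA and 0.427 in control cells, against 0.197 to 0.239 in the ZHX2 table.

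FOSL2 had 8.62 and 8.63 with p65 shRNA, against 7.72 and 8.04 with control shRNA. Both p65 arrays lay above both control arrays. The difference was 0.74 (SE 0.189, 95% interval 0.27 to 1.22), with a limma adjusted p of 0.196, or 0.0222 with an intensity trend. With 1 array left out the count of called members stayed at 0.

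FOSL1 and JUNB overlapped between the p65 groups. FOSL1 read 8.12 and 7.85 with p65 shRNA, against 8.04 and 8.42 with control shRNA, a difference of -0.24 (95% interval -0.78 to 0.30, limma adjusted p = 0.666). JUNB read 7.70 and 7.78 with p65 shRNA, against 8.28 and 7.75 with control shRNA, a difference of -0.27 (95% interval -0.85 to 0.31, limma adjusted p = 0.653). For JUNB the control replicates lay 0.53 apart, and the second of them fell between the p65 arrays.

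JUN and JUND were higher on both p65 arrays than on both control arrays, without passing. JUN read 7.70 and 7.56 with p65 shRNA, against 7.48 and 7.47 with control shRNA, a difference of 0.15 (95% interval -0.27 to 0.58, limma adjusted p = 0.738). JUND read 8.27 and 8.47 with p65 shRNA, against 7.61 and 8.19 with control shRNA, a difference of 0.47 (95% interval -0.15 to 1.10, limma adjusted p = 0.464). Of all genes, 46.0% had groups that did not overlap in this table, and 23.3% of all genes had the p65 arrays higher.

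The EGR genes did not pass in the p65 table. EGR1 read 3.46 and 4.49 with p65 shRNA, against 4.0 and 4.92 with control shRNA, a difference of -0.48 (95% interval -1.62 to 0.65, limma adjusted p = 0.686). The arrays of each group lay farther apart than the group means. The second EGR1 probe set read 2.06 and 1.61 with p65 shRNA, against 1.78 and 2.34 with control shRNA, a difference of -0.22. EGR3 read 1.88 and 2.65 with p65 shRNA, against 1.70 and 1.64 with control shRNA, a difference of 0.59 (95% interval -0.13 to 1.31, limma adjusted p = 0.427). For EGR3 both p65 arrays lay above both control arrays, by at least 0.18.

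FOS and FOSB gave different values by probe set in the p65 table. For FOS the probe set fitted there, 16794955, read 2.05 and 1.95 with p65 shRNA, against 2.17 and 1.75 with control shRNA, a difference of 0.04 (95% interval -0.49 to 0.57, limma adjusted p = 0.953). Probe set 16786587, the one fitted in the ZHX2 table, read 1.52 and 1.58 with p65 shRNA, against 2.25 and 2.44 with control shRNA. That difference of -0.80 (SE 0.179) had a 95% interval of -1.27 to -0.33, all of it negative. It did not pass when every probe set was tested (limma adjusted p = 0.344), nor when the ZHX2 table's probe sets were fitted (0.159). For that probe set both p65 arrays lay below both control arrays, while for the first the groups overlapped.

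For FOSB the probe set 16873329 read 3.06 and 3.50 with p65 shRNA, against 3.01 and 3.46 with control shRNA, a difference of 0.05 (limma adjusted p = 0.952). Probe set 16863287 read 3.52 and 2.99 with p65 shRNA, against 2.06 and 2.76 with control shRNA, a difference of 0.84 (SE 0.334, limma adjusted p = 0.530 with every probe set tested). The p65 arrays lay above the control arrays on the second probe set and overlapped them on the first. Here too the strand that each probe set reads was not checked.

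**Figure D3:**
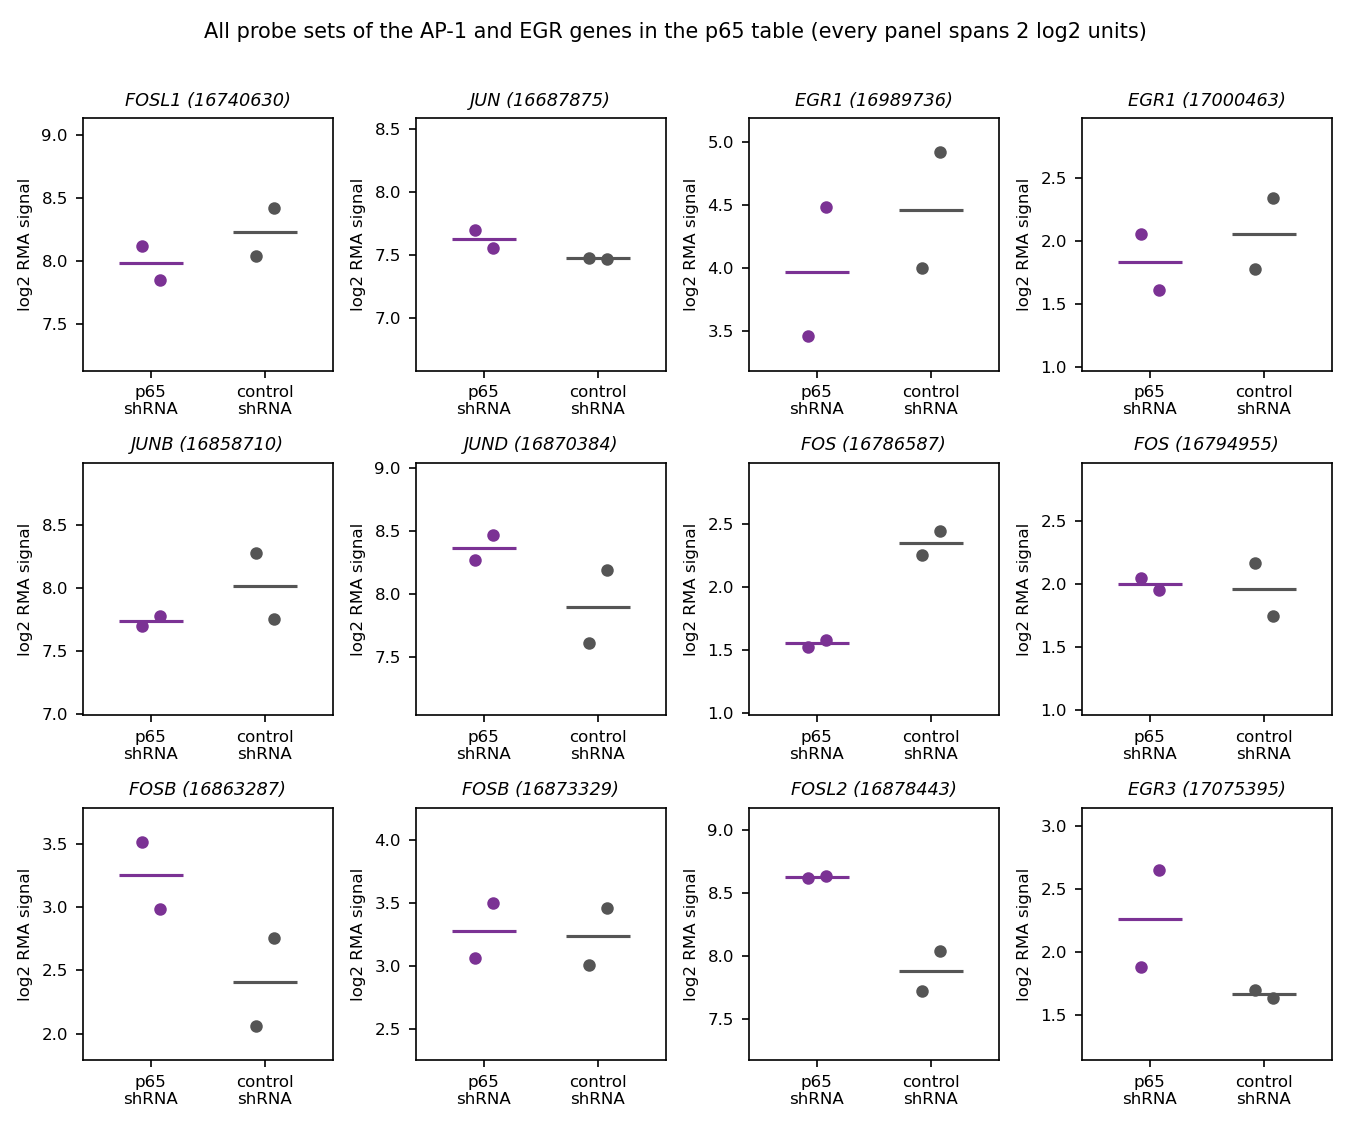
Log2 signal of every probe set of the members on the 4 arrays of the p65 table, p65 shRNA left of control shRNA, with each array as a point and the group mean as a bar. FOSL2 lies at 8.62 and 8.63 with p65 shRNA, above 7.72 and 8.04 with control shRNA, and the replicates of EGR1 lie farther apart than its group means.

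Set side by side, FOSL1 changed by 1.06 with the ZHX2 hairpins and differed by -0.24 with p65 shRNA, EGR1 by -1.29 and -0.48, JUNB by -0.72 and -0.27, JUND by -0.51 and 0.47, and FOSL2 by -0.02 and 0.74. Whether the responses to the 2 knockdowns differ was not tested, since the tables come from different platforms with their own controls.

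Of 23 other immediate early genes measured, which the same kinds of signal induce, 11 rose and 2 fell after ZHX2 knockdown, with a median change of 0.20. Over all genes 11.9% were called higher and 6.40% lower, so higher calls were the more common ones in general (65% of all calls). CCN2, a secreted matrix-associated protein, rose by 1.13 (SE 0.0602, limma adjusted p = 0.000960), with 8.49 and 8.48 on the hairpin 44 arrays and 8.95 and 8.94 on the hairpin 45 arrays, against 7.59 and 7.57 on the scrambled arrays. Its relative CCN1 rose by 1.04, the stress-induced GADD45B by 0.92 and the growth regulator MYC by 0.86. Averaging its probe sets gave 0.63 for CCN2, still called (limma adjusted p = 0.00725). TRIB1, a pseudokinase, and ZFP36, which promotes decay of AU-rich messengers, fell by 0.57 and 0.49. These last genes were singled out after their values were seen.

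The leucine zipper relatives that can pair with AP-1 proteins were called in 2 of 11 cases, both lower, with a median of 0.06, a share near the 18.3% called over all genes. MAF, a large MAF protein, read 9.28 and 9.23 on the hairpin 44 arrays and 8.99 and 8.90 on the hairpin 45 arrays, against 9.80 and 9.81 on the scrambled arrays, a fall of 0.71 (SE 0.0650, limma adjusted p = 0.00286). ATF2, a JUN partner at CRE sites, fell by 0.28 (SE 0.0630, limma adjusted p = 0.0315), a call lost with any 1 array left out. ATF4, the effector of the integrated stress response, stood at 0.18 (limma adjusted p = 0.223, or 0.0497 with an intensity trend).

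EGR4 and the NAB co-repressors were called in 0 of 3 cases, with 1 unadjusted p under 0.05, that of EGR4, and 0 with an intensity trend. Of all 22462 genes, 18.3% were called and 5878 passed with the trend. The share of all genes at an unadjusted p under 0.05 is not given here for this comparison, so that 1 count cannot be weighed. EGR4 passed without dim probe sets (limma adjusted p = 0.0433) and without scrambled replicate 1 (-0.39, limma adjusted p = 0.0458). It differed by -0.26 (SE 0.0935, limma adjusted p = 0.120), NAB2, itself a gene that EGR1 activates, by -0.11 and NAB1 by -0.03. NAB1 was at 0.01 after median centring.

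Upstream of these genes, 2 of 12 factors and kinases rose and 0 fell, with a median of -0.01, again a share near the 18.3% called over all genes. SRF, which binds CArG boxes such as those of EGR1, read 10.37 and 10.38 on the hairpin 44 arrays and 10.44 and 10.39 on the hairpin 45 arrays, against 9.96 and 9.94 on the scrambled arrays. It rose by 0.44 (SE 0.0619, limma adjusted p = 0.00817). MAPK9, which encodes a kinase that phosphorylates JUN proteins, rose by 0.27 (limma adjusted p = 0.0338), a call lost with any 1 array left out. ELK3, a ternary complex factor that joins SRF at its sites, differed by 0.24 without passing (limma adjusted p = 0.0788). ELK3 did pass with an intensity trend (0.00726), without dim probe sets (0.0235) and without scrambled replicate 1 (0.0492), and its value ran from 0.01 with its probe sets averaged to 0.33.

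**Figure D4:**
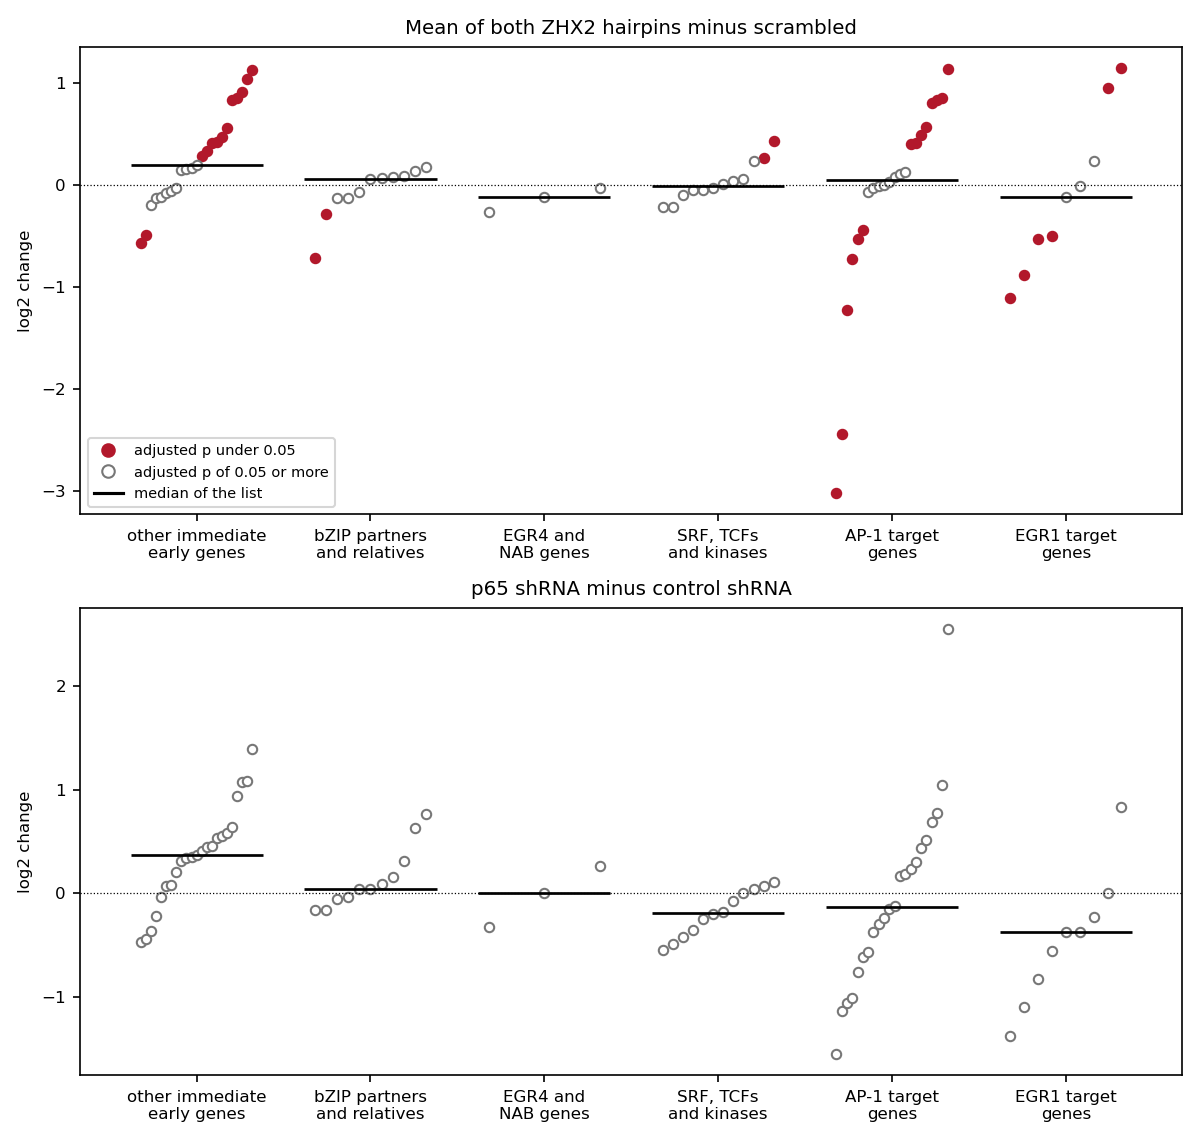
Log2 change of every measured gene in the 6 related lists, for the mean of both ZHX2 hairpins against scrambled cells and for p65 shRNA against control shRNA, with each gene as a point, filled where limma's adjusted p was under 0.05, and the list median as a bar. MMP13 lies at -3.02 in the ZHX2 comparison and at 2.55 in the p65 comparison.

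Commonly described AP-1 target genes split, with 8 of 22 higher, 6 lower and a median of 0.05, where 18.3% of all genes were called. MMP13, a collagenase, read 6.55 and 6.65 on the hairpin 44 arrays and 5.22 and 5.46 on the hairpin 45 arrays, against 9.10 and 8.88 on the scrambled arrays, and fell by 3.02 (SE 0.103, limma adjusted p = 0.000502). CXCL8, a neutrophil chemokine that NF-kB also controls, fell by 2.44 (SE 0.111), and SPP1, which encodes osteopontin, fell by 1.22 (SE 0.0643). Many genes of this list also answer to other factors.

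Commonly described EGR1 targets were called in 6 of 9 cases, 4 lower and 2 higher, with a median of -0.11, where 18.3% of all genes were called. PTGES, the inducible prostaglandin E synthase, read 6.87 and 6.69 on the hairpin 44 arrays and 7.36 and 7.25 on the hairpin 45 arrays, against 8.15 and 8.15 on the scrambled arrays, a fall of 1.11 (SE 0.0800, limma adjusted p = 0.00186). PDGFB, a growth factor chain, fell by 0.88 (SE 0.0866). F3, which encodes tissue factor, rose by 1.15 (SE 0.0908) and THBS1, an adhesive glycoprotein, rose by 0.96 (SE 0.0710). The other falls, seen after the values, were TGFB1 at -0.53 and FN1 at -0.50. TGFB1 stands in the AP-1 list too.

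With p65 shRNA none of the 6 lists held a called gene by limma, and with an intensity trend 3 lists held some. Over all genes, 14.3% had an unadjusted p under 0.05 and 3.86% passed with the trend. Of other immediate early genes 7 of 23 had an unadjusted p under 0.05, all of them higher, and 3 passed with the trend, MYC at 1.07 (limma adjusted p = 0.115, trend 0.00624), PPP1R15A at 1.08 (trend 0.0275) and RHOB at 1.39 (trend 0.0122), the last 2 named after their values were seen. Of AP-1 targets 2 passed higher with the trend, MMP13 and SPP1, and 5 lower, CXCL8 and, named after their values were seen, IL6 at -1.55, CD44 at -1.14, VEGFA at -1.06 and EZR at -0.76, and 9 of 22 had an unadjusted p under 0.05. MMP13 read 7.40 and 7.07 with p65 shRNA, against 4.89 and 4.48 with control shRNA, a difference of 2.55 (SE 0.228, limma adjusted p = 0.0730, trend 0.00236).

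Of EGR1 targets 1 passed higher with the trend, FN1 at 0.83, and 2 lower, F3 at -1.38 and PDGFB, and 4 of 9 had an unadjusted p under 0.05. PDGFB read 5.19 and 5.05 with p65 shRNA, against 6.24 and 6.20 with control shRNA, a difference of -1.10 (SE 0.169, limma adjusted p = 0.100, trend 0.0115). MAFG, a small MAF protein, differed by 0.63 (limma adjusted p = 0.231) and ELK1, a ternary complex factor, by -0.55 (limma adjusted p = 0.265), and neither passed with the trend. At an unadjusted p under 0.05 there were 1 of 11 leucine zipper relatives, 2 of 12 upstream factors and 0 of 3 of EGR4 and the NABs. Beside these list counts, 14.3% of all genes had such a p and 3.86% passed with the trend. The list medians were 0.37 for other immediate early genes, 0.04 for leucine zipper relatives, 0.00 for EGR4 and the NABs, -0.19 for upstream factors, -0.14 for AP-1 targets and -0.37 for EGR1 targets, beside 0.01 over all genes.

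The genes whose pattern over the 6 ZHX2 arrays was most like that of FOSL1 were taken by the smallest root mean square difference of centred signals among 19356 genes. They were PMAIP1, which encodes the BCL2 antagonist NOXA, at 0.0305, STAMBPL1, a deubiquitinase, at 0.0502 and CENPV at 0.0567. PMAIP1 read 9.82 and 9.75 on the hairpin 44 arrays and 9.84 and 9.92 on the hairpin 45 arrays, against 8.78 and 8.73 on the scrambled arrays. In the p65 table these 3 differed by 0.36, -0.16 and 0.15, and their limma adjusted p ran from 0.462 to 0.861.

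The genes most like EGR1 were LRRK2, a large kinase and GTPase, at 0.102, SLN, which encodes the calcium pump regulator sarcolipin, at 0.112, and GABARAPL1, an autophagy protein, at 0.115. LRRK2 read 7.09 and 7.01 on the hairpin 44 arrays and 6.93 and 6.95 on the hairpin 45 arrays, against 8.47 and 8.23 on the scrambled arrays. EGR1 thus had a less close match than FOSL1 by this measure. All 6 arrays enter every such value, and the likeness is a description without a test.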

How the data were processed

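Affymetrix arrays of total RNA from 786-O cells were analysed as 2 tables, with groups and replicate numbers taken from the sample titles. The deposited values are log2 signals made by the authors with RMA, per the submitters' processing notes. Which program ran RMA, in which version and on which build, is not given in the sources used here. Levels depend on that background correction and normalization, so the tables were fitted apart. No detection measure was used. Precision is limited by the number of arrays.

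Probe sets were named from both platform annotations, with symbols updated through RefSeq. Of 53617 probe sets, 24471 had 1 gene, 27196 none, 1842 several and 108 different genes. Per gene, the probe set with the highest mean signal in that table was fitted, and the others are given beside it. The FOS probe set 16794955 and the EGR1 probe set 17000463 are named by the ZHX2 platform's annotation alone.

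Group means were fitted with limma 3.58.1 in R 4.3.3 by empirical Bayes without a trend, on 6 arrays (3 residual degrees of freedom) and 4 arrays (2). Calls were made at an adjusted p under 0.05 (Benjamini-Hochberg, 22462 genes). The fit was tested on simulated data.

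Members and lists were chosen with earlier results of these data known. Named genes were all members, ZHX2 and RELA, per list the 3 genes with the smallest p for both ZHX2 hairpins and the 1 for p65, and the 3 genes most like FOSL1 and EGR1. Alternatives were an intensity trend, median centring, quantile normalization, leaving out probe sets under the 40th percentile, averaging the probe sets of a gene, testing every probe set, a replicate block, fitting the compared groups alone, and omitting each array. Same-numbered arrays correlated in their deviations between -0.0263 and 0.0539, so no shared deviation was seen over all genes. Whether same-numbered arrays were handled together is not in the labels, and these values cannot decide it. Promoters are RefSeq's 250 bases upstream on GRCh38.p14.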

Additional observations from a re-analysis of the deposited data

Results flagged for a closer look

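Among the genes related to AP-1, 2 commonly described targets differed between the ZHX2 hairpins by the test of the difference itself. MMP13 read 5.22 and 5.46 with hairpin 45, against 6.55 and 6.65 with hairpin 44, while scrambled cells had 9.10 and 8.88. The difference was -1.26 (SE 0.119, limma adjusted p = 0.0281). SPP1 read 10.36 and 10.44 with hairpin 45, against 11.29 and 11.33 with hairpin 44, and 12.08 and 12.07 in scrambled cells, a difference of -0.90 (SE 0.0742, limma adjusted p = 0.0208). Both genes fell with each hairpin, and both lay lower on each hairpin 45 array than on each hairpin 44 array. Both differences passed with the trend, either rescaling, without dim probe sets and with the mean of probe sets. They did not pass with every probe set (0.113 for MMP13 and 0.0955 for SPP1), a replicate block (0.0925 and 0.0741), only the groups compared (0.0782 for each) or any 1 array left out (0.0782 to 0.219 and 0.0782 to 0.208). The cause was not tested.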

How the results depend on the processing

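With the mean of both ZHX2 hairpins, FOSL1, JUN, EGR1 and JUNB kept their calls under every alternative, and JUND lost its call as given above and with every probe set (limma adjusted p = 0.0531). With 1 array left out, called members ran from 4 to 5 for both hairpins, 0 to 3 for hairpin 44, 3 to 5 for hairpin 45, and 0 to 0 between hairpins and for p65. Hairpin 44 had 2 with every probe set, and p65 had 1 with the trend. Over all genes the counts with 1 array left out were 1786 to 3332, 3 to 595, 1132 to 3967, 0 to 4 and 0. With every probe set they were 2051 for both hairpins, 298 for hairpin 44, 2336 for hairpin 45 and 5 between hairpins. With the trend they were 3943 for hairpin 44, 1465 between hairpins and 868 for p65, and without dim probe sets 3575, 807 and 84. With only the groups compared they were 576 for hairpin 44 and 3 between hairpins. Calls for both hairpins were 65% higher, 73.0% with median centring and 53.2% with quantile normalization.

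Nothing in the labels ties same-numbered arrays together beyond the number. The replicate block left 5 of 9 members called for both hairpins, 3 for hairpin 44 (JUN at limma adjusted p = 0.0684 was lost), 5 for hairpin 45, and 0 in the other comparisons. Of all 22462 genes it left 3382 called for both hairpins, 816 for hairpin 44, 3778 for hairpin 45, 9 between hairpins and 0 for p65.

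Changes of sign were seen in uncalled values alone. Median centring gave 0.03 for FOS, 0.02 for FOSL2 and 0.01 for NAB1 over both hairpins, and 0.01 for FOSB with hairpin 44. The mean of probe sets gave 0.02 for FOSB with hairpin 44, -0.02 for FOS and -0.02 for FOSB with hairpin 45, -0.05 for FOSB and -0.01 for EGR1 between hairpins, and -0.38 for FOS with p65. Quantile normalization gave -0.07 for FOSL2 with hairpin 44 and -0.01 for FOSL1 between hairpins. The ZHX2 table's probe sets, an alternative chosen after seeing the data, gave -0.80 for FOS with p65. With 1 array left out, the ranges that crossed 0 were, over both hairpins, FOS -0.10 to 0.07, FOSL2 -0.06 to 0.02, NAB1 -0.08 to 0.02. With hairpin 44 they were FOSB -0.05 to 0.01, FOSL2 -0.01 to 0.06, EGR3 -0.01 to 0.09. With hairpin 45 they were FOS -0.03 to 0.14, FOSL2 -0.14 to 0.01, EGR3 -0.03 to 0.29. Between hairpins they were JUND -0.18 to 0.09, EGR1 -0.01 to 0.13, EGR3 -0.07 to 0.25. With p65 they were FOS -0.17 to 0.25, FOSB -0.17 to 0.28, EGR1 -1.0 to 0.03. The cause was not tested. For p65, the spread between replicates limits what could be called.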

Other observations

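Transcripts named after members, picked by symbol after the values were seen, gave no call. JUN-DT, a divergent transcript of JUN, read 6.38 and 6.33 on the hairpin 44 arrays and 6.25 and 6.25 on the hairpin 45 arrays, against 6.32 and 6.39 on the scrambled arrays, while JUN itself rose. Its mean change over both hairpins was -0.05 (95% interval -0.21 to 0.10, limma adjusted p = 0.616). FOSL2-AS1 read 4.36 and 3.67 with p65 shRNA, against 3.90 and 3.68 with control shRNA, a difference of 0.22 (95% interval -0.47 to 0.92, limma adjusted p = 0.768).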
